A study of Mus musculus with 8 samples.

Results

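The genes described here are 53 components of the BMP and TGF-beta signalling pathways in mouse bone marrow mesenchymal stem cells (MSCs). They were taken by gene symbol, from a list ordered by role, out of 47643 named entries of the expression table, and all 53 were found there. By role they comprised 11 BMP-family ligands, 5 activin and TGF-beta ligands, 11 receptors, 8 Smads, 4 Id genes, 10 extracellular antagonists and modulators, and 4 latent TGF-beta binding proteins. RNA-seq compared 2 libraries of Prx1-Cre;Mettl3fl/fl cells (cKO) with 2 libraries of Mettl3fl/fl control cells, which the labels call wild type (WT). Cells were flushed from the limb bones of C57BL/6 mice and kept for 2 days in osteogenic medium (100 nM dexamethasone, ascorbic acid at 50 µg/ml and β-glycerophosphate at 5 mM) in both genotypes. A further 2 m6A immunoprecipitates and 2 inputs of wild-type cells under the same treatment gave 1 list of m6A peaks. Prx1-Cre is active in the limb bud mesenchyme and its descendants, so that blood-derived cells in the same dish would keep the floxed gene intact, and the sources do not say whether the libraries of a genotype came from separate animals or cultures. The p-values therefore measure the spread between these libraries, which may be technical.

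BMP and TGF-beta ligands are secreted proteins that bind pairs of type I and type II serine/threonine kinase receptors. BMP receptors phosphorylate Smad1, Smad5 and Smad9, TGF-beta and activin receptors phosphorylate Smad2 and Smad3, and either set joins Smad4 to enter the nucleus. Extracellular antagonists such as Noggin and Gremlin trap the ligands, latent TGF-beta binding proteins hold TGF-beta in the matrix, and the Id genes are direct transcriptional targets of BMP Smads. BMP signalling is best known in this tissue for inducing osteoblast and cartilage differentiation, and TGF-beta for acting on early progenitors and matrix.

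A library held between 23978099 and 34106693 counts. The biological coefficient of variation between replicates, the spread beyond counting error, was 12.3% for the WT pair and 1.91% for the cKO pair. Mettl3 itself was at 17.6 and 16.9 CPM (counts per 1000000, scaled by TMM) in WT and at 17.5 and 16.3 CPM in cKO libraries. The log2 change of cKO over WT was -0.03 with a standard error of 0.09, so the Mettl3 totals gave no sign of the deletion. Reads were available per gene and not per exon. The loss of exons 2 and 3 that the floxed allele is built for was therefore not tested in these libraries. Macrophage markers summed to 21155 and 25387 CPM in WT and 27452 and 27619 CPM in cKO libraries, with 4 of 12 higher in cKO, among them C1qa, and 8 not called. Of the marrow stromal markers 4 of 10 were higher, including Prrx1 and Thy1, and 5 lower, including Cxcl12 and Nt5e. Osteoblast markers were lower for 6 of 7, chondrocyte markers for 5 of 5 tested, and adipocyte markers were higher for 6 of 6. The chondrocyte markers summed to 3573 and 3609.8 CPM in WT and to 84.6 and 84.2 CPM in cKO libraries. Of the 6 endothelial markers Kdr, Vwf and Emcn were higher, Cdh5 was not called, and Pecam1 and Tek were too low to test, Pecam1 with at most 9 counts in a library. Of the neutrophil markers 2 of 7 could be tested, with S100a8 lower, and S100a9, Mpo and Ngp were at 0. The entries of S100a9 and Mpo cover only short stretches (GRCm38 chr3:90695668-90695721 and chr11:87804325-87804373), so a 0 there does not show that the RNA was absent. No erythroid marker reached the tested level. In bulk RNA, fewer cells of a type and less RNA per cell cannot be told apart, and the part of these marker shifts in the values below was not tested.

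Of the 53 pathway genes, 52 passed the filter on low counts. In cKO cells 14 were higher and 22 lower at an adjusted p under 0.05 (edgeR's quasi-likelihood test, Benjamini-Hochberg over 15327 genes), and 16 were not called. The libraries of the genotypes did not overlap for some genes that were not called, such as Tgfb1 and Smad2. A lack of overlap alone therefore does not mark a changed gene. Over all genes tested, 13.7% were higher and 16.8% lower, against 26.9% and 42.3% of the pathway genes tested. These shares are a description, since the genes were chosen with earlier results of these data known. The pathway genes were also better expressed, with a median of 35.9 CPM against 20.05 CPM, and no share of calls at matched expression was computed. Rises made up 44.9% of all calls here and 55.3% with limma on log2(TPM + 1), a scale on which 11 pathway genes were higher and 14 lower. The median size of the log2 change was 0.52 for the pathway genes and 0.25 for all genes, and the signed medians were -0.20 and 0.00. With the rule the study used for its gene calls, an unadjusted p under 0.05 with at least a 2-fold change, 5 pathway genes were higher and 9 lower, where 3.31% and 7.2% of all genes were.
The counts depended on which library was left out, in the pathway and over all genes. Fewer genes were called without a cKO library and more without a WT library. A fit with 1 library of a genotype takes its spread from the other pair, and the cKO pair was the closer (coefficient of variation 1.91% against 12.3%). The 17 genes that kept their call in every one of 11 alternative settings were Bmp4, Bmp6, Bmp7, Gdf6, Gdf11, Tgfbr1, Tgfbr2 and Ltbp4 among those that rose and Bmp5, Gdf10, Inhbb, Smad6, Id1, Id2, Id3, Grem1 and Bambi among those that fell.

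**Figure D1:**
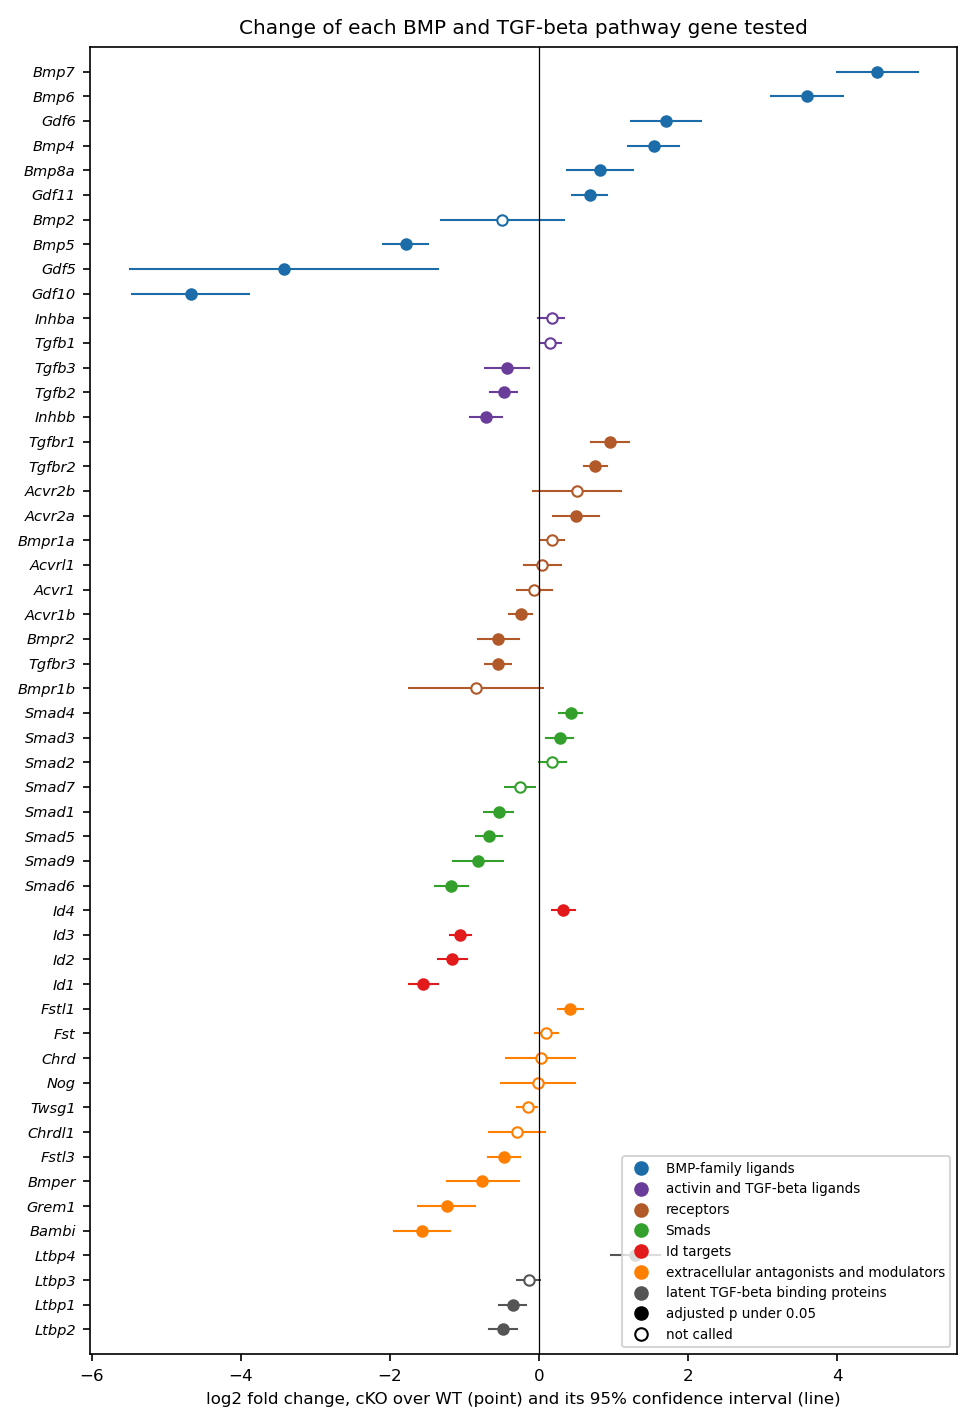
Log2 fold change of cKO over WT for the 52 pathway genes tested (x axis), grouped by role (colour), with the 95% confidence interval as a line. Filled points passed an adjusted p of 0.05; the BMP-family ligands spread from -4.67 (Gdf10) to 4.54 (Bmp7), while Id1, Id2 and Id3 lie together on the lower side and Id4 on the higher.

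The wild-type m6A list placed at least 1 peak summit in 32 of the 53 genes. Among genes that passed the filter this was 31 of 52, or 59.6%, against 37.1% of all genes tested. The pathway genes were also the better expressed, with a median of 35.9 CPM against 20.05 CPM for all genes tested. At or above 10 CPM, 27 of 37 pathway genes (73.0%) and 49.1% of all genes held a peak. The 5 activin and TGF-beta ligands each had a peak, as did 5 of 11 BMP-family ligands, 6 of 11 receptors, 6 of 8 Smads, 3 of 4 Id genes, 5 of 10 antagonists and 2 of 4 latent TGF-beta binding proteins.
The 48 peaks in these genes had their summit in the coding sequence 22 times (45.8%), in the 3′UTR 21 times (43.8%) and in the 5′UTR 5 times. Over all peaks within genes, 61.5% lay in the coding sequence and 25.4% in the 3′UTR. Of the 48 summits, 15 lay within 200 nt of the last coding base. Fold enrichment ranged from 1.82 in Id3 to 12.9 in Bmp2, with a median of 3.81 against 4.03 for the whole list of 10160 peaks. Gdf11, Tgfb3, Smad3 and Smad7 carried 3 peaks each. No peak was listed in Bmp5, Bmp6, Bmp7, Bmp8a, Gdf5 or Gdf10, nor in the receptors Tgfbr1, Bmpr1a, Bmpr1b, Acvr2b and Acvrl1. The other genes without a peak were Smad4, Smad5, Id4, Chrd, Chrdl1, Fst, Fstl3, Bmper, Ltbp3 and Ltbp4. The list comes with no replicate values, and its depth is unknown.

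m6A is written mostly within GGAC and close variants, and 43 of the 48 peaks contained GGAC on the transcript strand. The 10 genes with the lowest peak q-values are shown by the GGAC nearest the summit, in capitals, with 13 bases on each side, because their peaks are the most significant of the pathway by q, a ranking that favours deeply covered mRNAs. The adenosine of the GGAC shown lies between 1 nt (Grem1, Bmp2) and 133 nt (Acvr1) from the summit. Sequences are from mm9, read 5′ to 3′ on the transcript strand.
Tgfb2, 3′UTR, chr1:188448638-188448667, minus strand: gtgagttgttataGGACtaagcaagtcttc
Grem1, coding sequence, chr2:113590129-113590158, minus strand: caacctggctccaGGACccgggggcggggc
Gdf11, coding sequence, chr10:128322464-128322493, minus strand: ggaacctaggcctGGACtgcgatgaacact
Acvr1, 3′UTR, chr2:58299883-58299912, minus strand: ccttgtccagctgGGACctaatgctggcct
Bmp2, coding sequence, chr2:133386905-133386934, plus strand: gtggaccacacagGGACacaccaaccatgg
Tgfb3, coding sequence, chr12:87418777-87418806, minus strand: cttgcaccacgttGGACttcggccacatca
Smad1, coding sequence, chr8:81895965-81895994, minus strand: cagagaaagctgtGGACgctttggtgaaga
Tgfb1, 5′UTR, chr7:26472326-26472355, plus strand: gtcagagacgtggGGACttcttggcactgc
Acvr1b, 3′UTR, chr15:101041405-101041434, plus strand: tggcctgcaagagGGACagagcctgggaga
Inhba, coding sequence, chr13:16118232-16118261, plus strand: cacagggcagcttGGACacgggggatgagg
The summit in Tgfb2 had a −log10 q of 46.6 and a fold enrichment of 7.74. Grem1 followed with a −log10 q of 40.4 and a fold enrichment of 4.01, and Gdf11 with 37.4 and 6.26. Bmp2 had the highest fold enrichment, 12.9, on a pileup of 39 fragments, whereas Tgfb1 had 2.61 on a pileup of 200. Among the other genes with a peak, enrichment was highest in Acvr2a (9.06), Gdf6 (7.99) and Smad9 (7.23), above most of these 10. Their pileups were low, at 30, 29 and 11 fragments. Of these 10 genes Gdf11 was higher in cKO, Tgfb2, Grem1, Tgfb3, Smad1 and Acvr1b were lower, and Acvr1, Bmp2, Tgfb1 and Inhba were not called.

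**Figure D2:**
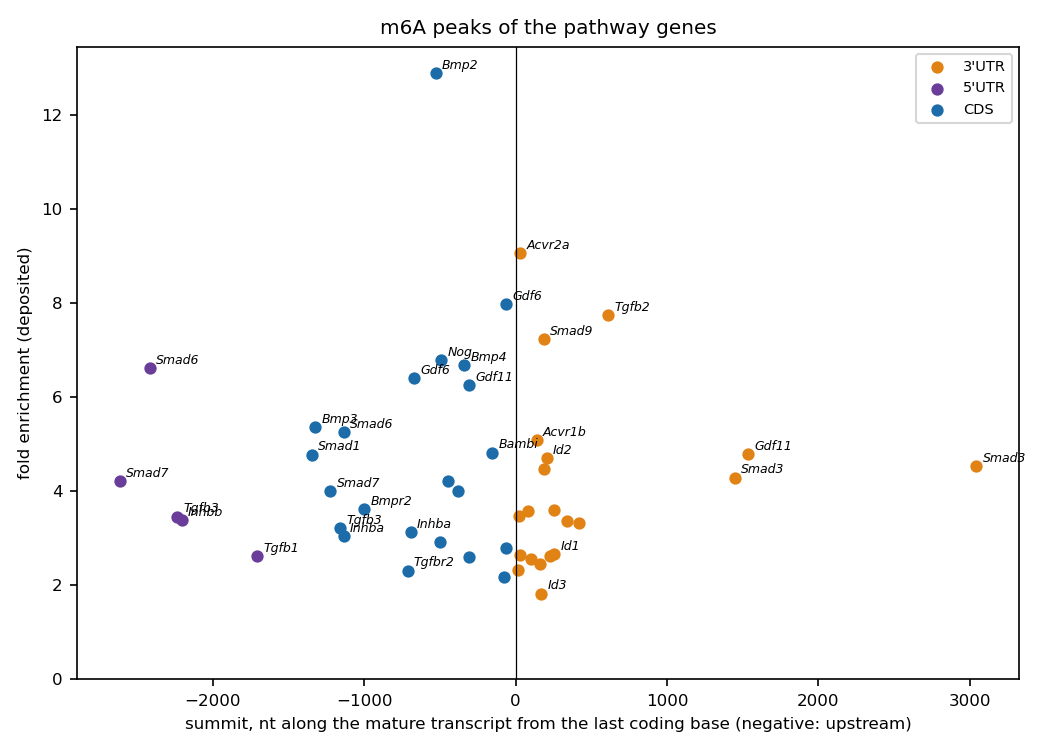
Fold enrichment of each m6A peak in a pathway gene (y axis) against the distance of its summit from the last coding base along the mature transcript (x axis, nt, negative values upstream), coloured by transcript region. Of the 48 summits 15 lie within 200 nt of 0, and the whole range is from -2613 nt (Smad7) to 3044 nt (Smad3). Bmp2 stands highest at 12.9, and Id3 lowest at 1.82.

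Among the 31 tested genes with a peak, 7 were higher in cKO and 16 lower, with a median log2 change of -0.35, and among the 21 without a peak 7 were higher and 6 lower, with a median of 0.05. Over all genes, 1289 of the 5687 with a peak were higher and 762 lower, with a median of 0.09, and 811 of the 9640 without a peak were higher and 1815 lower, with a median of -0.07. These are descriptions of which genes carry a peak in wild-type cells, since no m6A list of cKO cells was analysed here.

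The BMP-family ligands changed in opposite directions, with 6 of 10 tested higher, 3 lower and Bmp2 not called. Bmp7 (ENSMUSG00000008999, GRCm38 chr2:172868012-172940321), a ligand of the osteogenic Bmp5/6/7 subfamily, was at 0.325 and 0.318 CPM in WT and 7.43 and 7.72 CPM in cKO libraries. It was near the floor in both WT libraries, at 11 and 9 counts, and plainly present in both cKO libraries at 180.0 and 246 counts. Its log2 fold change was 4.54 ± 0.22 (SE, n = 2 libraries per genotype, as throughout; adjusted p = 5.5e-05).
Bmp6 (GRCm38 chr13:38345716-38499728), of the same subfamily, was at 0.680 and 0.920 CPM in WT and 9.74 and 9.51 CPM in cKO, with no overlap between genotypes. The log2 fold change was 3.59 ± 0.20 (adjusted p = 8.83e-05). In the mm9 gene models used for the peaks, an exon of Bmp6 overlaps Txndc5 on the opposite strand. In the GRCm38 coordinates given with the counts the 2 genes do not overlap, with Txndc5 at chr13:38500273-38528824. Txndc5 held 292 and 299 CPM in WT and 246 and 250.3 CPM in cKO. Whether strand was used in counting is not given in the sources used here.
Bmp4 (GRCm38 chr14:46383520-46390669), which with Bmp2 forms the other osteogenic subfamily, rose from 6.00 and 4.71 CPM to 15.3 and 15.9 CPM. The log2 change was 1.54 ± 0.14 (adjusted p = 0.000681), far outside the spread of either pair. Its partner Bmp2 was at 1.86 and 1.13 CPM in WT and 1.07 and 1.07 CPM in cKO, with a 95% confidence interval of the log2 change from -1.32 to 0.33 that includes both a fall and a small rise. Without WT replicate 2 the log2 change of Bmp2 was -0.80, and without WT replicate 1 it was -0.08.
Gdf6, a joint and cartilage morphogen, was at 2.16 and 2.62 CPM in WT and 6.89 and 8.57 CPM in cKO (log2 1.70 ± 0.19, adjusted p = 0.00156). Gdf11, a ligand of the activin branch that patterns the axial skeleton, rose from 22.45 and 25.8 CPM to 37.0 and 40.04 CPM (log2 0.68 ± 0.10, adjusted p = 0.00359). Bmp8a was at 3.67 and 3.47 CPM in WT and 7.10 and 5.55 CPM in cKO (log2 0.82 ± 0.18, adjusted p = 0.0186). In each of these 3 genes the cKO libraries lay above the WT libraries, and for Bmp8a the call was lost without cKO replicate 1 (adjusted p = 0.193).

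Bmp5, Gdf10 and Gdf5 fell. Bmp5 (GRCm38 chr9:75775364-75900310), the third member of the Bmp5/6/7 subfamily, was at 24.7 and 28.0 CPM in WT and 6.98 and 8.22 CPM in cKO. The log2 change was -1.79 ± 0.12 (adjusted p = 0.000207), so that the most abundant WT ligand of its subfamily decreased where its relatives increased.
Gdf10 (GRCm38 chr14:33923587-33935280), a BMP3-like ligand, dropped from 6.51 and 5.59 CPM to 0.330 and 0.157 CPM, or from 220.0 and 158 counts to 8 and 5. The log2 change was -4.67 ± 0.32 (adjusted p = 0.00021). Gdf5, a joint and cartilage morphogen related to Gdf6, had 65 and 36 counts in WT and 8 and 0 counts in cKO libraries (log2 -3.42 ± 0.86, adjusted p = 0.0274). The size for Gdf5 is not firm: without cKO replicate 2 it was -2.27, without cKO replicate 1 the remaining cKO library was at 0 counts, and the call was lost with DESeq2 (adjusted p = 0.276) and on log2(TPM + 0.1) (adjusted p = 0.0834). Gdf10 and Gdf5 were close to the detection floor in cKO. Bmp3 had 0 and 1 counts in WT and 0 and 4 in cKO and was not tested. Chondrocyte markers (5 of 5 tested) and osteoblast markers (6 of 7) were lower in the same libraries, whereas Gdf6, also a cartilage morphogen, rose (log2 1.70). The part of these marker shifts in the falls of Bmp5, Gdf10 and Gdf5 was not tested.

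Ligand levels were compared per transcript length, as TPM. The 11 BMP-family ligands summed to 31.3 and 31 TPM in WT and 47.8 and 48.7 TPM in cKO. In CPM the rise was smaller, with the 10 tested ligands at 70.3 and 73.8 in WT and 92.2 and 96.7 in cKO. Bmp5 made up 28.8% and 32.4% of the TPM sum in WT and 5.63% and 6.55% in cKO libraries. Bmp4 went from 15.0% and 12.2% to 27.9% and 27.2%, and Bmp6 from 1.31% and 1.74% to 13.1% and 12.6%. Bmp7 went from 0.384% and 0.387% to 6.28% and 6.43%, and Gdf10 from 12.1% and 10.2% to 0.419% and 0.205%. Gdf11 kept a similar share, 24.5% and 27.9% in WT and 28.0% and 29.9% in cKO. The leading ligand mRNAs were therefore Bmp5 and Gdf11 in WT and Gdf11 and Bmp4 in cKO cells.

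**Figure D3:**
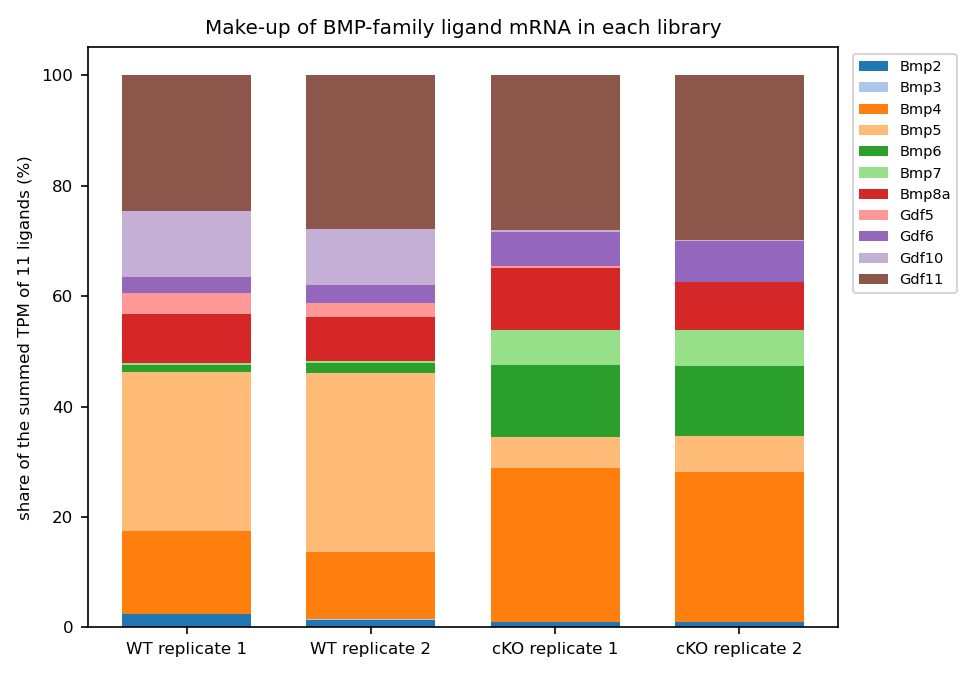
Share of each of the 11 BMP-family ligands in their summed TPM (y axis, %), 1 bar per library. Bmp5 and Gdf10 take 30.6% and 11.2% on average in WT and 6.09% and 0.312% in cKO, and Bmp4 and Bmp6 take 27.5% and 12.8% in cKO.

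Of the activin and TGF-beta ligands 3 of 5 were lower and none was higher. Tgfb1, the main TGF-beta isoform of bone and blood cells, was the most abundant of these mRNAs at a mean of 109 TPM in WT and 129.6 TPM in cKO. It had 163 and 157 CPM in WT and 177 and 177 CPM in cKO, so the genotypes did not overlap, but the log2 change of 0.15 ± 0.06 missed the adjusted threshold (adjusted p = 0.108, 95% confidence interval 0.01 to 0.29). Inhba, which encodes the subunit of activin A, was at 31.1 and 31.9 CPM in WT and 36.03 and 34.9 CPM in cKO (log2 0.17 ± 0.07, adjusted p = 0.131). Without WT replicate 1 or 2 the log2 change of Tgfb1 was 0.18 and 0.12, and that of Inhba was 0.15 and 0.18.
Inhbb, the subunit of activin B, fell from 28.5 and 27.5 CPM to 16.3 and 17.98 CPM (log2 -0.71 ± 0.09, adjusted p = 0.0025). Tgfb2 and Tgfb3, the other TGF-beta isoforms, were lower by smaller amounts, with log2 changes of -0.47 and -0.43 (adjusted p = 0.00556 and 0.0372). Both calls were lost without cKO replicate 1 (adjusted p = 0.0729 and 0.176), and that of Tgfb3 also without cKO replicate 2 (adjusted p = 0.108).

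Of 11 receptors 3 were higher, 3 lower and 5 not called. The TGF-beta receptors Tgfbr1 and Tgfbr2, the type I and type II chains that bind TGF-beta together, were the most abundant receptor mRNAs and both rose. Tgfbr1 (GRCm38 chr4:47353222-47414931) was at 182 and 146 CPM in WT and 317 and 318 CPM in cKO (log2 0.96 ± 0.11, adjusted p = 0.00135). Tgfbr2 (GRCm38 chr9:116087698-116175363) went from 296 and 279 CPM to 482 and 489.8 CPM (log2 0.76 ± 0.06, adjusted p = 0.000368). The cKO libraries lay above the WT libraries for both genes. In the same cultures 6 of 6 adipocyte markers were higher. Of the macrophage markers 4 of 12 were higher and 8 not called, and of the marrow stromal markers 4 of 10 were higher and 5 lower. The part of these shifts in the 2 rises was not tested.
Tgfbr3, the co-receptor betaglycan, fell, with a log2 change of -0.55 (adjusted p = 0.00228). Bmpr2, the main BMP type II receptor, and Acvr1b, the activin type I receptor, were lower, with log2 changes of -0.54 and -0.25 (adjusted p = 0.0148 and 0.0316), and Acvr2a, an activin type II receptor, was higher, with 0.49 (adjusted p = 0.029). Leaving out either cKO library ended the calls of Bmpr2 (adjusted p = 0.0561 and 0.0663) and Acvr1b (adjusted p = 0.302 and 0.307), and leaving out cKO replicate 1 that of Acvr2a (adjusted p = 0.231). An exon of Acvr2a overlaps Orc4 on the opposite strand.
The BMP type I receptors Bmpr1a and Acvr1 had log2 changes of 0.18 and -0.07, with 95% confidence intervals from 0.02 to 0.34 and from -0.30 to 0.17. Acvrl1, the type I receptor of endothelial cells, had 0.05 (-0.20 to 0.29), and Acvr1 and Acvrl1 overlapped between genotypes. Bmpr1b and Acvr2b were low, at mean levels of at most 2.69 TPM, with log2 changes of -0.85 and 0.51 (adjusted p = 0.135 and 0.169). Over the fits with 1 library left out, the log2 change ranged from 0.14 to 0.21 for Bmpr1a and from -1.09 to -0.61 for Bmpr1b. It ranged from -0.19 to 0.06 for Acvr1, from -0.06 to 0.15 for Acvrl1 and from 0.31 to 0.77 for Acvr2b.

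Of the 8 Smads 2 were higher, 4 lower and 2 not called. The 3 receptor Smads of the BMP branch, Smad1, Smad5 and Smad9, were lower, and so was Smad6, the inhibitory Smad that acts mainly on BMP receptors and is itself a BMP target. Smad3 of the TGF-beta branch and the common partner Smad4 were higher, and Smad2 and the inhibitory Smad7 were not called.
Smad6 (GRCm38 chr9:63953076-64022059) was at 89.3 and 86.8 CPM in WT and 35.7 and 42.2 CPM in cKO (log2 -1.17 ± 0.09, adjusted p = 0.000322). Smad5 fell from 43.6 and 43.2 CPM to 26.95 and 27.6 CPM (log2 -0.67 ± 0.07, adjusted p = 0.00116). Smad9 fell from 12.1 and 15.0 CPM to 7.47 and 7.91 CPM (log2 -0.81 ± 0.14, adjusted p = 0.00721). The genotypes did not overlap for any of these 3 genes, which was also so for some pathway genes that were not called. On log2(TPM + 0.1) the adjusted p of Smad5 and Smad9 were 0.0678 and 0.0537.
Smad4 and Smad2 had the highest mean TPM of the Smads over the 4 libraries. Smad4 was at 57.7 and 60.7 CPM in WT and 81.3 and 77.7 CPM in cKO (log2 0.42 ± 0.06, adjusted p = 0.00469). Smad2 was at 43.1 and 46.03 CPM in WT and 52.0 and 49.0 CPM in cKO, without overlap but short of the threshold (log2 0.18 ± 0.07, adjusted p = 0.112). Smad1 and Smad3 had log2 changes of -0.54 and 0.28 (adjusted p = 0.00418 and 0.0401), and Smad7 one of -0.26 (adjusted p = 0.0648).
Without cKO replicate 1 the adjusted p of Smad1, Smad3 and Smad4 rose to 0.055, 0.309 and 0.0844, and without cKO replicate 2 those of Smad1 and Smad3 to 0.0612 and 0.251, and the call of Smad3 was also lost with DESeq2. With 1 library left out, the log2 change of Smad2 ranged from 0.13 to 0.22 and that of Smad7 from -0.33 to -0.17.

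Id1, Id2 and Id3, which encode dominant-negative helix-loop-helix proteins, fell together and Id4 rose slightly. Id1 (ENSMUSG00000042745, GRCm38 chr2:152736251-152737410) was at 65.8 and 73.2 CPM in WT and 23.2 and 24.1 CPM in cKO. Both cKO libraries were well below both WT libraries, with a log2 change of -1.55 ± 0.08 (adjusted p = 6.92e-05).
Id2 (GRCm38 chr12:25093801-25096092) was at 237 and 207 CPM in WT and 98.2 and 100.4 CPM in cKO (log2 -1.16 ± 0.08, adjusted p = 0.000198). Id3 (GRCm38 chr4:136143497-136145755), the most abundant of the 53 mRNAs per length at a mean of 443 TPM in WT, went from 319 and 336 CPM to 159 and 157 CPM (log2 -1.05 ± 0.06, adjusted p = 9.79e-05). The pairs were tight and did not overlap for either gene. Id4 was at 47.1 and 45.2 CPM in WT and 56.8 and 58.9 CPM in cKO, a change of 0.33 (adjusted p = 0.0133) that lost its call without cKO replicate 1 (adjusted p = 0.129) or cKO replicate 2 (adjusted p = 0.20). The 4 Id genes summed to 916 and 889.6 TPM in WT and to 464 and 471 TPM in cKO.
Id1, Id2 and Id3 each carried 1 m6A peak in the 3′UTR in wild-type cells, and Id4 none. Their GGAC nearest the summit, chosen for display after the expression values were seen because these 3 genes fell together, is shown as above on mm9.
Id1, chr2:152562845-152562874, plus strand: taccgcagccaccGGACtcttggcggatcg
Id2, chr12:25779236-25779265, minus strand: cgttctccggcctGGACtgtgataccgtta
Id3, chr4:135700921-135700950, plus strand: acgcctcgaggctGGACctggagcccgaga
Their summits lay 253, 204 and 167 nt beyond the last coding base. The peaks of Id1 and Id3 were weak, with −log10 q of 6.18 and 6.69 and fold enrichments of 2.66 and 1.82, and that of Id2 was stronger, with 17.2 and 4.71.

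**Figure D4:**
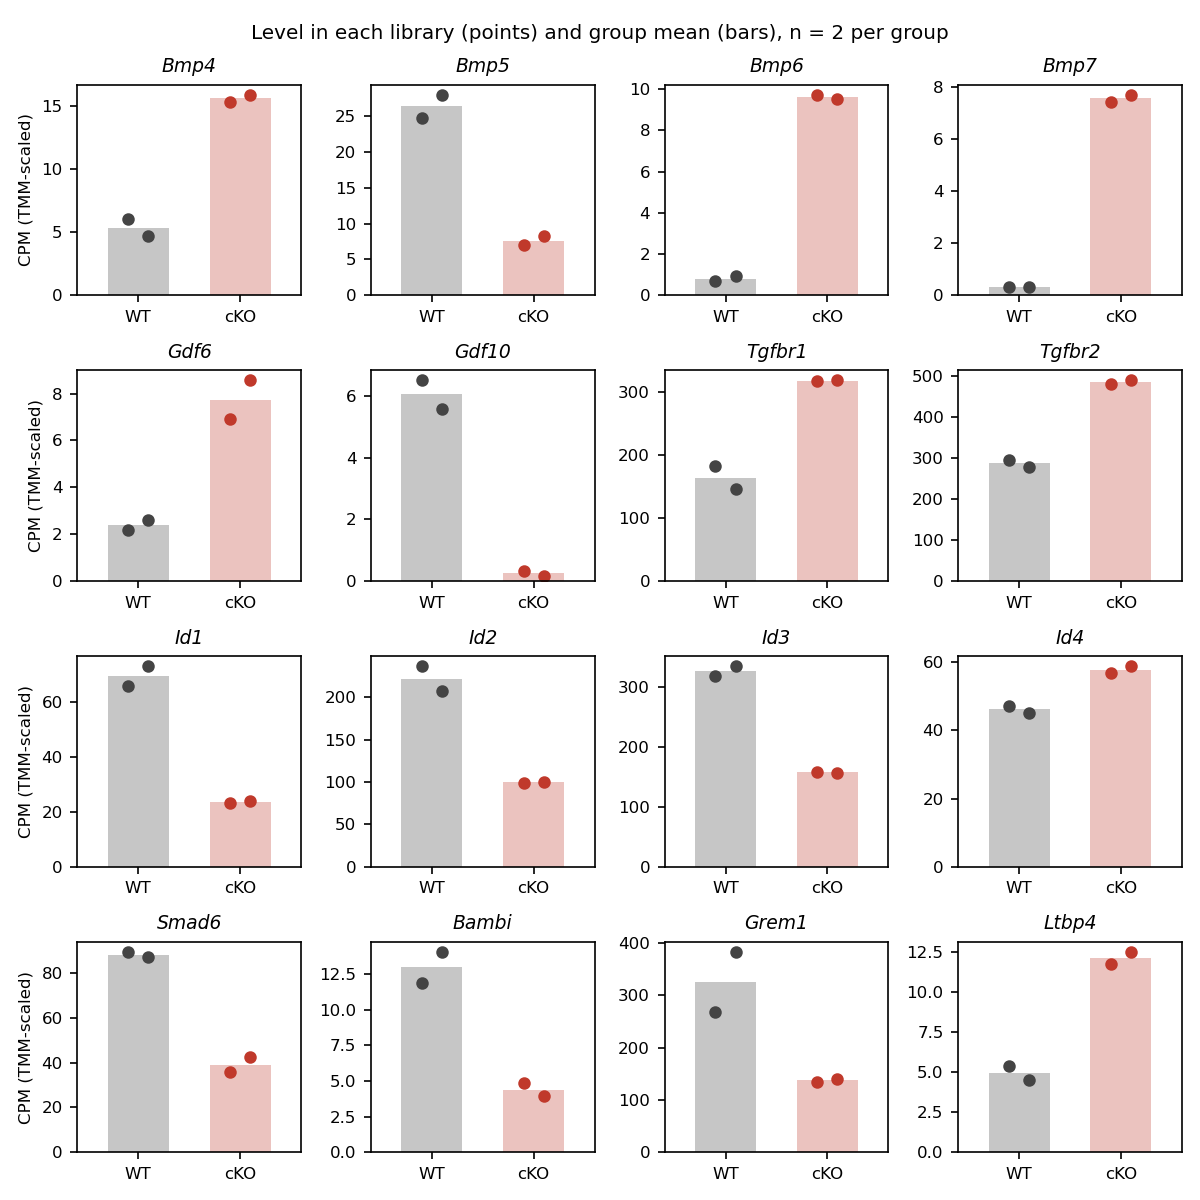
Level of 16 pathway genes in each library (points, CPM scaled by TMM, linear y axes from 0) with the mean of the 2 libraries per genotype as a bar. In every panel the WT and cKO points are apart; Bmp7 goes from 0.325 and 0.318 CPM to 7.43 and 7.72 CPM, and Id1 from 65.8 and 73.2 CPM to 23.2 and 24.1 CPM.

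BMP Smads bind GC-rich elements such as GGCGCC, and this sequence was counted in RefSeq promoters of GRCm38.p6, from 250 bases before to 50 bases after the gene start, on both strands, which are the same for a palindrome. The 37 pathway genes found there had 45 promoters, of which 14 held it (31.1%), against 11.9% of all 32851 promoters. The SMAD element GTCTAGAC was in 1 of the 45, that of Smad6, and in 0.213% of all. Among the Id genes the element GGCGCC was in the promoters of Id2, which fell, and Id4, which rose, but not in that of Id3, and Id1 was not among the genes searched. Both matches are shown in capitals on the gene's strand, because the 2 genes moved in opposite directions.
Id2, chr12:25096306-25096335, minus strand: tcaggccccctgGGCGCCcagcgcacactg
Id4, chr13:48260956-48260985, plus strand: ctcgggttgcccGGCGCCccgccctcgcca
A match of letters is no binding site, and a GC-rich sequence is frequent in promoters.

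Of the 10 extracellular antagonists and modulators 4 were lower, 1 higher and 5 not called. Grem1 (GRCm38 chr2:113746164-113758646), the secreted BMP antagonist Gremlin, was at 268 and 383 CPM in WT and 135 and 141 CPM in cKO. The WT libraries differed from each other by more than 100 CPM but both lay above the cKO libraries, with a log2 change of -1.24 ± 0.16 (adjusted p = 0.00242). Bambi, a decoy receptor without a kinase domain and a target of the pathway, fell from 11.9 and 14.0 CPM to 4.83 and 3.95 CPM (log2 -1.57 ± 0.16, adjusted p = 0.000952). Bmper, a secreted BMP-binding protein, was at 9.91 and 14.7 CPM in WT and 6.85 and 7.59 CPM in cKO (log2 -0.76 ± 0.20, adjusted p = 0.0328).
Fstl1, a secreted glycoprotein of mesenchymal cells related to follistatin, was the most abundant of this group and rose from 499.8 and 448 CPM to 634 and 637 CPM (log2 0.42 ± 0.07, adjusted p = 0.00652). Fstl3, an activin antagonist, fell, with a log2 change of -0.47 (adjusted p = 0.0099). Leaving out cKO replicate 1 ended the calls of Bmper, Fstl1 and Fstl3 (adjusted p = 0.127, 0.0883 and 0.0752), and leaving out cKO replicate 2 did the same (adjusted p = 0.0768, 0.0944 and 0.151).
The BMP antagonists Noggin (Nog) and Chordin (Chrd) were low, at 2.73 and 1.5 mean TPM in WT and 2.90 and 1.62 in cKO. Their libraries overlapped between genotypes, with 95% confidence intervals of the log2 change from -0.51 to 0.48 and from -0.44 to 0.48. Chrdl1, Fst and Twsg1 had log2 changes of -0.29, 0.10 and -0.15 (adjusted p = 0.204, 0.294 and 0.0905). With 1 library left out, these ranged from -0.43 to -0.15, from 0.08 to 0.11 and from -0.17 to -0.14.

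Among the latent TGF-beta binding proteins Ltbp4 rose, Ltbp1 and Ltbp2 fell and Ltbp3 was not called. Ltbp4, a microfibril protein that also organises elastic fibres, was at 5.38 and 4.53 CPM in WT and 11.8 and 12.5 CPM in cKO (log2 1.29 ± 0.14, adjusted p = 0.00114). The table holds a second, nearly empty entry under that symbol with 0 to 5.1 counts, which was not added.
Ltbp2 was the most abundant of the 4 in WT and went from 173 and 152 CPM to 115.5 and 117 CPM (log2 -0.49 ± 0.08, adjusted p = 0.00533). Ltbp1 was lower, with a log2 change of -0.35 (adjusted p = 0.0128). Ltbp3, with 119 and 113 CPM in WT and 107 and 104 CPM in cKO, missed the threshold (log2 -0.14 ± 0.06, adjusted p = 0.14). The calls of Ltbp1 and Ltbp2 were lost when either cKO library was left out. With 1 library left out, the log2 change ranged from -0.42 to -0.28 for Ltbp1, from -0.58 to -0.39 for Ltbp2 and from -0.18 to -0.10 for Ltbp3.

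**Figure D5:**
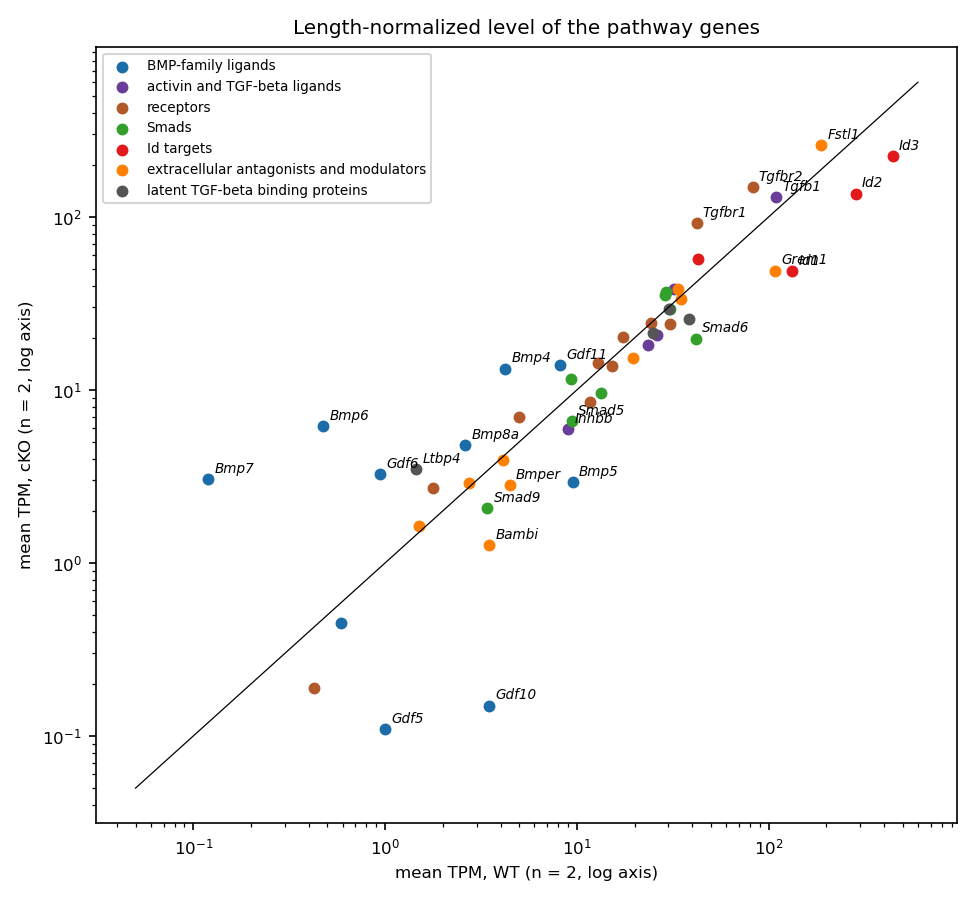
Mean TPM in cKO (y axis) against mean TPM in WT (x axis), both log axes, for the 52 pathway genes tested, coloured by role, with the line of equal levels. Id3 (443 and 225 TPM), Id2, Id1 and Grem1 lie below the line at the abundant end, and Bmp4, Bmp6 and Bmp7 lie above it at lower levels.

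Beyond these 53 genes, 65 further genes of the pathway were counted from lists by role, of which 54 were tested, 15 higher, 17 lower and 22 not called, with a median log2 change of -0.01. The BMP-responsive list of 14 genes, of which 9 are described above, had 11 lower, 1 higher (Id4) and 2 not called. The 5 of them outside the 53 were Msx1, Msx2, Dlx5, Hey1 and Atoh8, named here after their values were seen, and each was lower, with log2 changes of -0.57, -1.34, -2.47, -2.73 and -0.72. Over all genes tested, 16.8% were lower and 13.7% higher. The BMP-responsive list was chosen with earlier results of these data known, and the paper already reported Dlx5 lower in this RNA-seq. Its tally is therefore a description and no separate evidence. Msx1, Msx2 and Dlx5 are homeobox genes of the osteoblast lineage, in libraries where 6 of 7 osteoblast markers were lower as well. The part of that shift in their falls was not tested.
Of the 10 TGF-beta-responsive genes, 2 are described above (Smad7 and Ltbp2), and the other 8 gave 3 higher, 4 lower and 1 not called. Other ligands and processing enzymes gave 1 higher and 1 lower of 8 tested, other receptors 2 and 4 of 6, other antagonists and matrix partners 5 and 1 of 12, and other intracellular regulators 5 and 3 of 17. Some genes, such as Skil, stand in more than 1 of these lists.
The largest rises outside the 53 were those of Itgb8, an integrin chain that activates latent TGF-beta (0.651 and 0.778 CPM in WT, 5.45 and 4.64 in cKO; log2 2.82 ± 0.24, adjusted p = 0.00047), Ctgf, a matrix protein induced by TGF-beta (log2 1.0 ± 0.06, adjusted p = 9.64e-05), and Crim1, a membrane BMP-binding protein (log2 0.87 ± 0.06, adjusted p = 0.000186). The largest falls were those of Amhr2, the receptor of anti-Müllerian hormone, with 43 and 48 counts in WT and 0 and 1 in cKO (adjusted p = 0.00162), Dcn, the matrix proteoglycan decorin that binds TGF-beta, from 499.6 and 609 CPM to 18.8 and 19.6 CPM (log2 -4.85 ± 0.12, adjusted p = 4.08e-06), and Acvr1c, a type I receptor, with 27 and 19 counts in WT and 0 and 6 in cKO (log2 -2.76 ± 0.79, adjusted p = 0.0411). Amhr2 was near 0 in the cKO libraries, while Dcn remained expressed there at a mean of 16.5 TPM, against 459.8 TPM in WT.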

How the data were processed

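RNA-seq of 2 WT and 2 cKO libraries and MeRIP-Seq of 2 immunoprecipitates and 2 inputs were used. For RNA-seq the authors mapped reads with HISAT2 2.0.4 to mm10 and deposited estimated counts per gene (counter and strand not given in the sources used here) and a value headed FPKM. That deposited value sums to 1000000 per library and was treated as TPM. For MeRIP-Seq the submitters' processing notes name TopHat, MACS2 and mm9. The authors' peak list gives the pileup signal, the fold enrichment as a ratio, and the p-value and q-value as −log10, and whether samples were pooled is not given in the sources used here.

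Entries without a gene name, 0.11% to 0.125% of counts, were left out. Counts were rounded, filtered (filterByExpr), scaled by TMM to CPM and tested with edgeR 4.0.16 (glmQLFit, glmQLFTest, two-sided, no block). Ballgown, the study's tool, needs transcript coverage that was not analysed here. Library totals ranged from 23978099 to 34106693 counts, and precision covers counting and library spread only. An exact permutation of 2 against 2 libraries cannot go below p = 0.333. DESeq2 1.42.0, limma 3.58.1 on log2(TPM + 0.1) and log2(TPM + 1), RLE scaling, no filter, a replicate block, summed cKO libraries and leaving out each library were the alternatives. Peaks were assigned by summit to GENCODE vM1 genes on mm9. Per-library values are given for genes past the threshold with at least a 1.5-fold change and the 2 most abundant of each role. The genes and lists were chosen with earlier results of these data known. Same-numbered WT and cKO libraries did not deviate together (r = 0.026 across genes).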

Additional observations from a re-analysis of the deposited data

How the results depend on the processing

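Of the 36 calls, none changed direction in any of the 11 alternative fits, and DESeq2 (13 higher, 20 lower; 3862 genes in all) lost 3 of them. On TPM the counts were lower: 8 higher and 12 lower with a pseudocount of 0.1 (2060 genes in all, pathway median -0.06), and 11 and 14 with a pseudocount of 1 (2858 genes, median -0.05). The median of all genes moved to 0.10 and 0.08 on these scales, and the share of rises among all calls from 44.9% to 48.5% and 55.3%. With the cKO libraries summed to 1 sample, 8 were higher and 13 lower (1981 genes); that setting and the loss of a cKO library take the spread from the WT pair. Without the filter on low counts the pathway median was -0.15. The study's rule gave 5 higher and 9 lower and 1611 genes in all. Leaving out each library in turn gave 1889 to 8719 genes, 8 to 18 pathway genes higher, 13 to 27 lower and a median of -0.21 to -0.15. Where 1 library of a genotype was left, its spread was assumed to be that of the other genotype.

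The direction turned for 4 genes that were not called. On TPM with a pseudocount of 0.1 and of 1, Acvr1 was at 0.01 and 0.01 and Nog at 0.08 and 0.06. With a library left out, Acvr1 ranged from -0.19 to 0.06, Acvrl1 from -0.06 to 0.15, Nog from -0.14 to 0.10 and Chrd from -0.12 to 0.16. The cause was not tested. With the replicate number as a block, 14 pathway genes were higher, 22 lower and 4881 genes were called in all, and the block changed no call among the pathway genes; the numbers are not said to mark a shared animal or day. Members with a peak numbered 32 at −log10 q of at least 5, and 33 when 1 base of the peak within an exon was enough.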

Other observations

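Bmp3 held 2 m6A peaks in its coding sequence in wild-type cells, with pileups of 31 and 38 fragments and fold enrichments of 5.37 and 4.21, while its RNA-seq counts were 0 and 1 in the WT libraries. The depth of the MeRIP-Seq samples is unknown, and the 2 experiments came from different library kits.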
